A study of Mus musculus with 18 samples.

Results

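The genes described here encode 10 enzymes of purine nucleotide synthesis: Ppat, Gart, Pfas, Paics, Adsl, Atic, Impdh1, Impdh2, Gmps and Mthfd2. They were found by symbol among the 21859 rows of a count table from mouse retinal pigment epithelium (RPE), 1 row each, and all 10 were among the 15944 genes that passed the filter on low counts. Paics was selected on its measured rise after the OSK vector. Its values in that comparison are therefore a description with no test. The other 9 enzymes were named for their place in the pathway, with earlier results of these data known.

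The RPE is the pigmented cell layer behind the photoreceptors, and polyA RNA from it was read in 18 libraries. Young (7 libraries) is RPE of young mice and Old (4 libraries) is RPE of aged mice. Old control (3 libraries) is RPE of aged mice given AAV2-tTA, an adeno-associated virus that carries a tetracycline-controlled transactivator. Old OSK (4 libraries) is RPE of aged mice given AAV2-tTA;TRE-OSK, in which a tetracycline-responsive promoter drives Oct4 (Pou5f1), Sox2 and Klf4. Both vector groups thus share AAV2-tTA. The injected layer may be a mix of cells that did and did not take up the vector, since uptake per cell was not measured. Strain, sex, exact ages, doses, times after injection and the number of animals per library are not given in the sources used here. Since nothing says that libraries of a group came from separate animals, the p-values measure only the spread between these libraries.

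Purines are built on a ribose phosphate scaffold. Ppat takes the first and committed step, Gart, Pfas, Paics, Adsl and Atic assemble the rings to inosine monophosphate (IMP), and the path then forks to adenylate and guanylate. Some carbons of the ring come from formyl-folate, to which the mitochondrial enzyme Mthfd2 contributes. Non-dividing cells such as those of the adult RPE are known to rely largely on salvage of bases and nucleosides, while growing and dividing cells raise the full synthesis. In photoreceptors the guanylate branch also feeds the cyclic GMP of phototransduction, and Impdh1 is a known retinal disease gene.

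E-boxes, the hexamer CACGTG bound by Myc and related factors, were looked for because purine synthesis genes are known Myc targets. RefSeq promoters of GRCm38.p6, 300 bases around a start site, were matched by symbol for 9 of the 10 genes. An E-box was found in the promoters of 3 of these 9 genes, against 7.15% of all 32851 promoters of that length. The windows below show these 3 hexamers in capitals with 12 bases on either side, on the plus strand, at chr1:71557137-71557166 (Atic), chr5:76951087-76951116 (Paics) and chr9:108560314-108560343 (Impdh2).
Atic: ggacctcggggtCACGTGgggtcgacacgc
Paics: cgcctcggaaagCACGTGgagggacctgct
Impdh2: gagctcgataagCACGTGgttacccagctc
The hexamer began at position -7 from the RefSeq start site of Atic, -203 of Paics and -110 of Impdh2. Motifs of the vector's own factors were searched on both strands in the same windows. The octamer ATGCAAAT (in 1.74% of all promoters) and the Sox core CATTGT (12.6%) were in none of the 9 genes' windows. The Klf motif GGGNGTGG (17.6%) was in those of Atic and Impdh2. The GC box GGGCGG (35.7%) was in those of 8 genes and CCAAT (37.4%) in those of 5. GGGCGG and GGGNGTGG can overlap by their run of G. These are matches of letters, and no binding was measured.

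Paics and Ppat lie head to head. In the GENCODE M21 annotation of GRCm38, Paics spans chr5:76951307-76967509 on the plus strand and Ppat chr5:76913249-76951578 on the minus strand. Their 5′ exons overlap by 272 bases, which is 8.67% of the exon bases of Paics and 6.15% of those of Ppat. The strand setting of the counting is not given in the sources used here, so reads in these bases cannot be assigned with certainty to either gene. The other 8 genes lie apart from each other in the same annotation. On the minus strand are Gart (chr16:91621186-91646952), Pfas (chr11:68985697-69008460), Impdh1 (chr6:29200434-29216364) and Mthfd2 (chr6:83305691-83325908). On the plus strand are Adsl (chr15:80948490-80970946), Atic (chr1:71557150-71579631), Impdh2 (chr9:108560286-108565584) and Gmps (chr3:63976106-64022579).

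**Figure D1:**
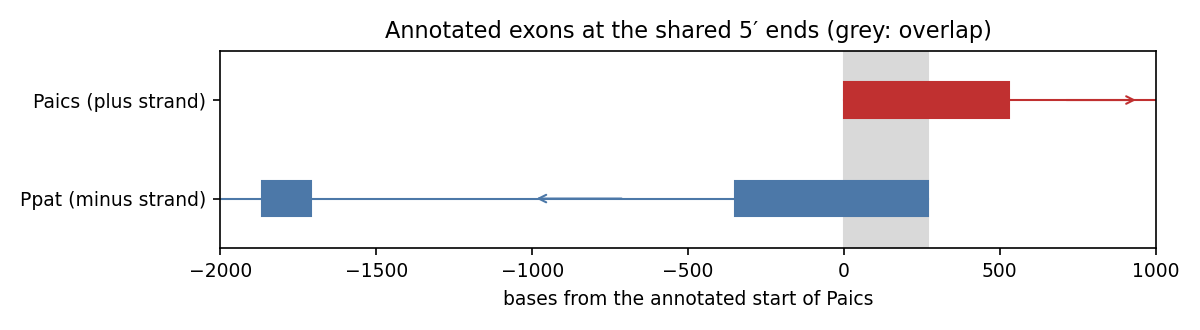
Exons of Paics and Ppat near their shared start, drawn by distance in bases from the annotated start of Paics, with 1 row per gene. The 5′ exons of the genes, which run in opposite directions, overlap by 272 bases.

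Levels are given as CPM (counts scaled to a common library total) after scaling of the library totals by the trimmed mean of M-values, and levels of different genes are compared only per kb of annotated exon. Library totals lay between 18104828 and 32348136 counts. The lowest count of any of the 10 genes in any library was 102, for Mthfd2 in a Young library. Pou5f1 was at 50.1 to 97.4 CPM in the 4 Old OSK libraries and at no more than 3.75 CPM in the other 14. In every library, no gene of a list of 10 RPE markers, among them Rpe65, Best1 and Rlbp1, was at 0.

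In Young RPE, Paics stood far above the rest, with a mean of 62.2 CPM per kb of exon. Impdh2 followed with 10.2, Gart with 9.04, Gmps with 7.57 and Impdh1 with 7.33 CPM per kb. Adsl (4.98), Pfas (4.96), Atic (4.6) and Ppat (4.07 CPM per kb) were lower, and Mthfd2 was lowest at 1.67. This order depends on the exon lengths used, which are the union over all annotated transcripts (3.14 kb for Paics, 7.99 kb for Atic). Lengths of the transcripts present in these libraries were not measured. The lowest Young library had 57.9 CPM per kb for Paics, above the highest of any other enzyme, 12.2 for Impdh1. For every other pair of neighbours in this order the ranges over the Young libraries overlapped, except Ppat and Mthfd2 (at least 3.85 against at most 2 CPM per kb). Whether the order held within each single library is not given by these ranges.

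The first comparison is Old OSK against Old control, RPE of aged mice with and without the OSK genes beside AAV2-tTA. Paics was higher in all 4 Old OSK libraries, and no other enzyme of the 10 passed the threshold of an adjusted p under 0.05 (edgeR's quasi-likelihood test, Benjamini-Hochberg adjustment over 15944 genes). Paics itself is the gene chosen for this comparison, so its place as 1 of the 10 past the threshold is not a finding. Over all genes tested, 0.728% passed. At an unadjusted p under 0.05, 3 of the other 9 enzymes were found, against 26.3% of all genes. The median log2 fold change of the 10 enzymes was -0.02, and -0.05 without Paics, against -0.03 over all genes tested. Of the 10, 5 were above 0 and 5 below.

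Ppat, amidophosphoribosyltransferase, had 19.56, 23.90, 20.13 and 17.27 CPM in Old OSK replicates 1 to 4. In Old control replicates 1 to 3 it had 13.61, 15.32 and 15.64 CPM. All Old OSK values lay above all Old control values. Leaving aside Paics, which was chosen for its rise, groups separated in this direction for Ppat alone of these enzymes, and for 6.55% of all genes tested. In the other direction they separated for 0 of the 10 and for 5.84% of all genes. The log2 fold change of Ppat was 0.44 (SE 0.12, 95% interval 0.20 to 0.69), with an edgeR adjusted p of 0.0696. It passed with DESeq2 (adjusted p 0.00846), and with edgeR when Old control replicate 2 (0.0311) or Old OSK replicate 4 (0.0248) was left out. Leaving out Old control replicate 1 gave the highest adjusted p of its edgeR fits without 1 library, 0.33. Mean CPM of Ppat was 5.36 higher in Old OSK than in Old control, and that of Paics, with which it shares exon bases, 118.4 higher. The part of the shared bases in the value of Ppat was not tested.

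Gart carries several reactions of the path on 1 protein. It had 35.48, 40.45, 36.13 and 40.01 CPM in Old OSK, against 42.83, 32.67 and 45.48 CPM in Old control. The Old control values spanned those of Old OSK. Its log2 fold change was -0.08 (95% interval -0.34 to 0.17, edgeR adjusted p 0.724). An antisense gene, Gm15964, overlaps 19.7% of its exon bases.

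Pfas, which adds an amide nitrogen to the substrate that Gart then cyclises, had the lowest log2 fold change of the 10. Its Old OSK libraries had 22.41, 22.99, 30.63 and 27.6 CPM, against 43.38, 28.41 and 36.99 CPM in Old control. Only Old control replicate 2 lay within the range of Old OSK. The log2 fold change was -0.48 (SE 0.16, 95% interval -0.82 to -0.15) with an edgeR adjusted p of 0.0945. Without Old control replicate 2, the library richest in rod transcripts, it was -0.66 with an edgeR adjusted p of 0.0186. This was the only 1 of the 7 fits without 1 library in which it passed, and without Old control replicate 1 it was -0.36 (edgeR adjusted p 0.385).

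Paics joins carbon dioxide and aspartate to the growing ring, the reactions between those of Gart and Adsl. It had 265.7, 336.3, 300.5 and 251.1 CPM in Old OSK replicates 1 to 4. In Old control it had 174.3, 166.4 and 169.3 CPM. The lowest Old OSK library thus stood well above the highest Old control library, and Old OSK replicates 2 and 3 were the highest of all 18. The fitted log2 fold change was 0.76 (SE 0.09), or 1.7-fold. Leaving out each of the 7 libraries in turn gave 0.67 to 0.78, and 0.82 was fitted with equally numbered libraries as blocks. On the exon length scale the means were 54.2 CPM per kb in Old control and 91.9 in Old OSK.

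Adsl, which cleaves fumarate off in this path and again on the way to adenylate, had 27.79, 34.88, 30.21 and 26.89 CPM in Old OSK, against 29.3, 29.83 and 30.28 in Old control. Its log2 fold change was 0.01 (95% interval -0.28 to 0.29, edgeR adjusted p 0.986). Atic, the bifunctional enzyme that closes the ring to IMP, had 32.39, 37.41, 43.85 and 33.34 CPM in Old OSK, against 36.77, 31.08 and 38.97 in Old control, with a log2 fold change of 0.05 (95% interval -0.21 to 0.30, edgeR adjusted p 0.862). The Old control values of Adsl lay inside the range of Old OSK, and the ranges of Atic overlapped in part.

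On the guanylate branch, Impdh2, the IMP dehydrogenase isoform usually linked to growth, had 54.85, 47.47, 51.57 and 34.92 CPM in Old OSK. It had 27.86, 35.58 and 32.58 CPM in Old control. Old OSK replicate 4 lay within the Old control range and the other 3 lay above it. The log2 fold change was 0.56 (SE 0.14, 95% interval 0.25 to 0.87) with an edgeR adjusted p of 0.068. It passed with DESeq2 (0.0102), and with edgeR without Old OSK replicate 4 (0.0131) or without Old control replicate 2 (0.0178). The other 5 of its 7 fits without 1 library did not pass, with an adjusted p of up to 0.322 (without Old control replicate 1). A pseudogene, Impdh2-ps, is annotated and may share reads with it.

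Impdh1, the isoform that predominates in photoreceptors, varied too widely for a comparison. It had 45.89, 100.4, 42.62 and 189.8 CPM in Old OSK, and the Old control libraries had 44.1, 234.9 and 29.64 CPM. The log2 fold change was -0.12 with an SE of 0.65 (95% interval -1.50 to 1.26, edgeR adjusted p 0.939). Gmps, which makes guanylate from xanthylate, was by contrast the steadiest. It had 54.51, 54.66, 49.72 and 54.27 CPM in Old OSK, against 57.67, 53.37 and 54.84 in Old control, a log2 fold change of -0.05 (95% interval -0.20 to 0.09, edgeR adjusted p 0.691).

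Mthfd2, the enzyme of mitochondrial one-carbon metabolism, had 6.39, 8.148, 8.029 and 7.536 CPM in Old OSK, and the Old control libraries had 12.85, 7.272 and 6.548 CPM. Old control replicate 1 was the highest of all 18 libraries. The log2 fold change was -0.24 (95% interval -0.69 to 0.21, edgeR adjusted p 0.52), and 0.10 without Old control replicate 1.

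**Figure D2:**
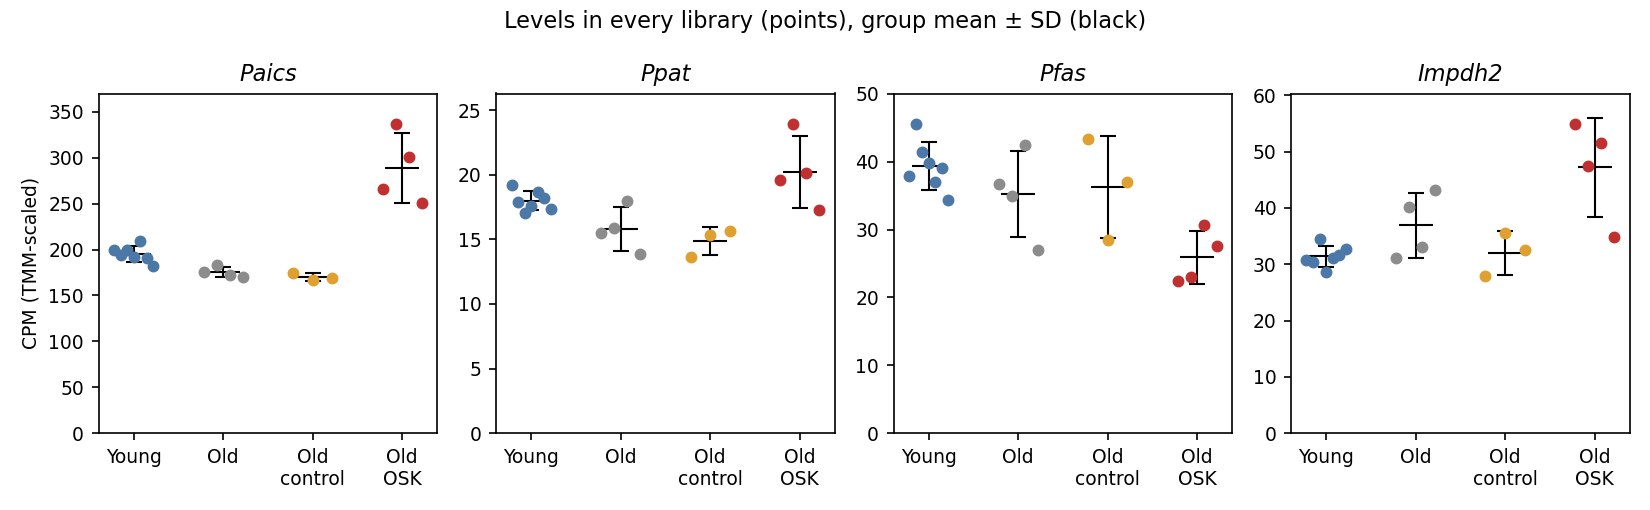
CPM of Paics, Ppat, Pfas and Impdh2 (vertical linear axes from 0, 1 panel per gene) in the Young, Old, Old control and Old OSK libraries, with points for libraries and black lines for the group mean and SD. Paics sits at 251.1 to 336.3 CPM in Old OSK and at no more than 209.8 CPM elsewhere, while for Pfas and for Impdh2 1 Old control and 1 Old OSK library lie inside the other group's range.

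Makeup of the libraries moved with this comparison. The summed level of the 10 RPE markers was 15574 to 29870 CPM in Old OSK, and 20460.5 (replicate 2), 53334 and 62067 CPM in Old control. Of these markers 8 were lower in Old OSK (median log2 fold change -0.99) and none passed the threshold. In bulk RNA, fewer cells of a type and less RNA per cell cannot be told apart. Old control replicate 2 and Old replicate 4, with 20460.5 and 27114 CPM of RPE markers, lay within the range of Old OSK and had 166.4 and 170.4 CPM of Paics. The part of RPE content in the values of Paics, Ppat, Pfas and Impdh2 was not tested.

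The library names of Young replicates 5 to 7, Old control replicates 2 and 3 and Old OSK replicate 4 contain an M whose meaning is not given in the labels. Summed counts of Y-linked genes were 4040 to 5493 in these 6 libraries and 0 to 93 in the other 12. Within the libraries with M, Paics was at 251.1 CPM in Old OSK, against 166.4 and 169.3 CPM in Old control. Within those without M, the Old OSK libraries had 265.7 to 336.3 CPM and the Old control library 174.3 CPM. The same split gave 17.27 CPM against 15.32 and 15.64 for Ppat with M, and 19.56 to 23.90 against 13.61 without. For Impdh2 the library with M (34.92 CPM) was within its Old control partners (35.58 and 32.58), and those without M (47.47 to 54.85) were above theirs (27.86). In the vector groups only Old OSK replicate 4 has M and only Old control replicate 1 lacks it. Paics was also chosen for its rise. The split is therefore a description with no test, and it cannot tell the part of M from that of the vector.

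The Old OSK libraries can also be set against Old, aged RPE with no vector. This comparison shares the Old OSK libraries with the one above and is given for size only. Paics had 175.8, 183.5, 172.6 and 170.4 CPM in Old, with a log2 fold change of 0.72 (SE 0.09) in Old OSK. Among the other 9 enzymes, 0 passed the threshold in edgeR (0.84% of all genes tested) or in DESeq2 (2.8%). Of these 9, 3 had an unadjusted p under 0.05 in edgeR, against 15.7% of all genes. Their lowest edgeR adjusted p was 0.131, for Ppat (log2 fold change 0.36), whose Old values of 15.47, 15.89, 17.96 and 13.84 CPM overlapped those of Old OSK through Old replicate 3. Pfas had 36.69, 34.91, 42.45 and 26.99 CPM in Old and a log2 fold change of -0.44 (edgeR adjusted p 0.165). Without Old replicate 4, the lowest of these, it was -0.55 with an edgeR adjusted p of 0.0329. This was the only 1 of 8 such fits in which it passed, and without Old replicate 3 it was -0.34 (edgeR adjusted p 0.449). Impdh2 had 31.18, 40.19, 33.06 and 43.16 CPM in Old and a log2 fold change of 0.35 (edgeR adjusted p 0.211). For Gart the log2 fold change was -0.22 (edgeR adjusted p 0.35), for Mthfd2 0.14 (edgeR adjusted p 0.753) and for Impdh1 0.71 (edgeR adjusted p 0.614), which was 0.064 without Old OSK replicate 4. For Adsl, Atic and Gmps it lay between -0.01 and 0.04.

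**Figure D3:**
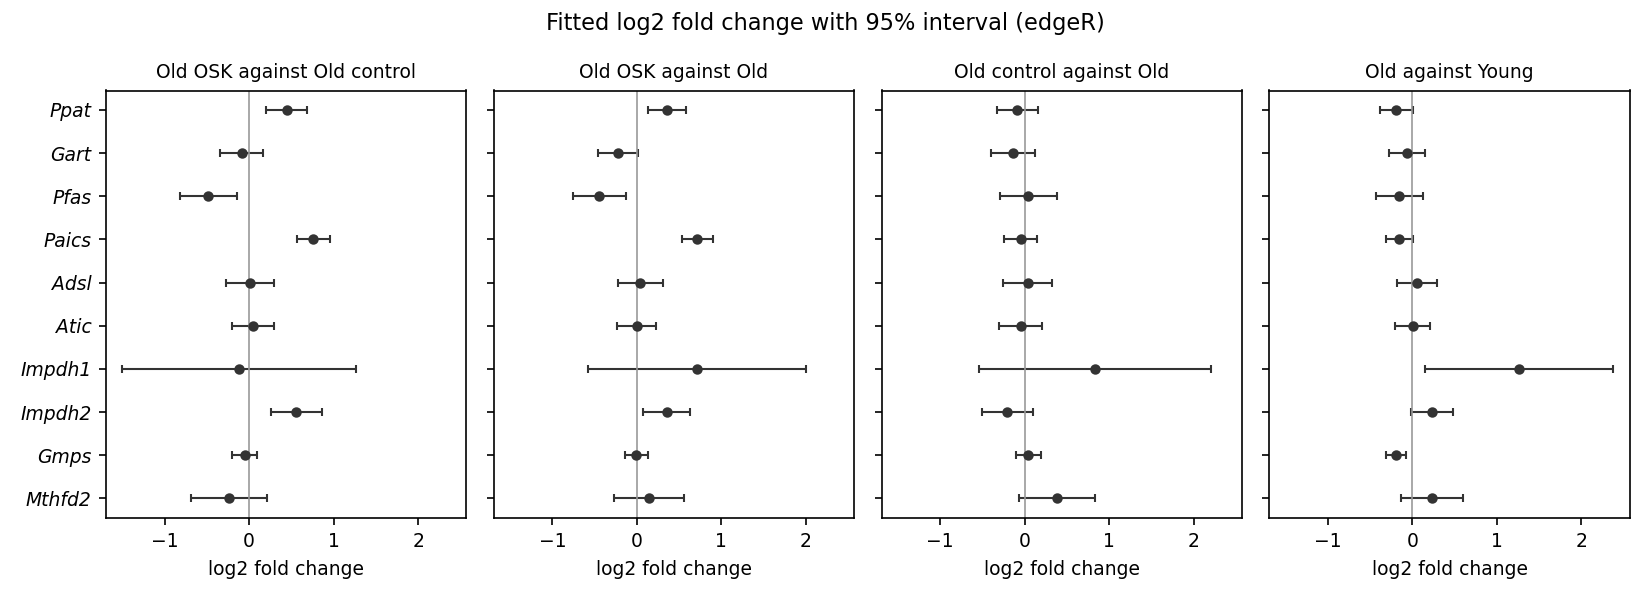
Fitted log2 fold change (horizontal axis, with its 95% interval) of each of the 10 enzymes in the 4 comparisons, with a line at 0. Paics lies at 0.76 and 0.72 in the comparisons of Old OSK with Old control and with Old, and at -0.15 and -0.05 in those of Old with Young and of Old control with Old.

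Old against Young asks what differed with age in RPE that had no vector. The count of called enzymes was 1 of 10, Gmps, against 9.56% of all genes tested. The median log2 fold change of the 10 enzymes was -0.03, against -0.00 over all genes, and 5 of the 10 were above 0. Gmps was at 57.68 to 66.88 CPM (median 59.58) in Young and at 56.47, 54.19, 52.1 and 51.73 CPM in Old. All Old values were below all Young values, a separation seen in 5.61% of all genes tested. The log2 fold change was -0.19 (SE 0.06), with an edgeR adjusted p of 0.0444. This call was lost in 9 of the 11 fits that left out 1 library, with an adjusted p of up to 0.172 (without Old replicate 4), and with the Young and Old libraries alone (edgeR adjusted p 0.0929).

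The other enzymes of the path to IMP differed little with age. Paics was at 181.6 to 209.8 CPM (median 193.9) in Young, and 1 of the 4 Old libraries, at 183.5 CPM, lay within that range. Its log2 fold change was -0.15 (SE 0.08, edgeR adjusted p 0.189). Ppat was at 17.04 to 19.21 CPM (median 17.89) in Young and its log2 fold change was -0.19 (edgeR adjusted p 0.197). Pfas, at 34.37 to 45.51 CPM (median 39.13) in Young, had -0.16 (edgeR adjusted p 0.457). Gart (39.86 to 50.87 CPM in Young, against 47.7, 47.61, 43.08 and 39.18 in Old), Adsl (24.19 to 32.53, against 25.72, 27.7, 25.53 and 37.48) and Atic (31.99 to 40.92, against 37.6, 39.04, 36.81 and 33.86) had log2 fold changes between -0.07 and 0.05.

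Impdh2 was at 28.56 to 34.57 CPM (median 31.14) in Young and had a log2 fold change of 0.23 in Old (edgeR adjusted p 0.197). Mthfd2, at 4.318 to 6.975 CPM (median 5.896) in Young and 6.37, 6.846, 6.871 and 7.173 CPM in Old, also had 0.23 (edgeR adjusted p 0.4). Impdh1 had the widest gap of the 10 by fold. It was at 9.84 to 40.29 CPM (median 25.56) in Young and at 90.18, 41.65, 37.73 and 62.4 CPM in Old, 1.26 higher on the log2 scale (SE 0.53, edgeR adjusted p 0.125). With only the Young and Old libraries in the fit it passed (1.28, edgeR adjusted p 0.0427).

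Impdh1 followed the rod content of the libraries. The 10 rod markers, among them Gnat1 and Sag and none at 0 in any library, summed to 150 to 2922 CPM in Young, 2019 to 7226 in Old, 1539 to 18330 in Old control and 2719 to 15411 in Old OSK. The 5 libraries with the most Impdh1 were the 5 with the most rod transcripts, in the same order. These were Old control replicate 2, Old OSK replicates 4 and 2, and Old replicates 1 and 4. The 3 lowest, Young replicates 5, 2 and 6, were also lowest in both. All 10 rod markers were higher in Old than in Young (median log2 fold change 1.44), and none passed the threshold. With the rod score as a covariate, the log2 fold change of Impdh1 in Old against Young was 0.19 (SE 0.21, edgeR adjusted p 0.651), and in Old OSK against Old control it was 0.04 (SE 0.22). As all 10 rod markers were higher in Old, this covariate cannot tell rod content from age. The part of rod content in the values of Impdh1 was not tested. Within a library, Impdh2 had 3.16 counts for each count of Impdh1 in Young replicate 5 and 0.151 in Old control replicate 2. For Paics, the same covariate left the log2 fold change in Old OSK against Old control at 0.77.

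**Figure D4:**
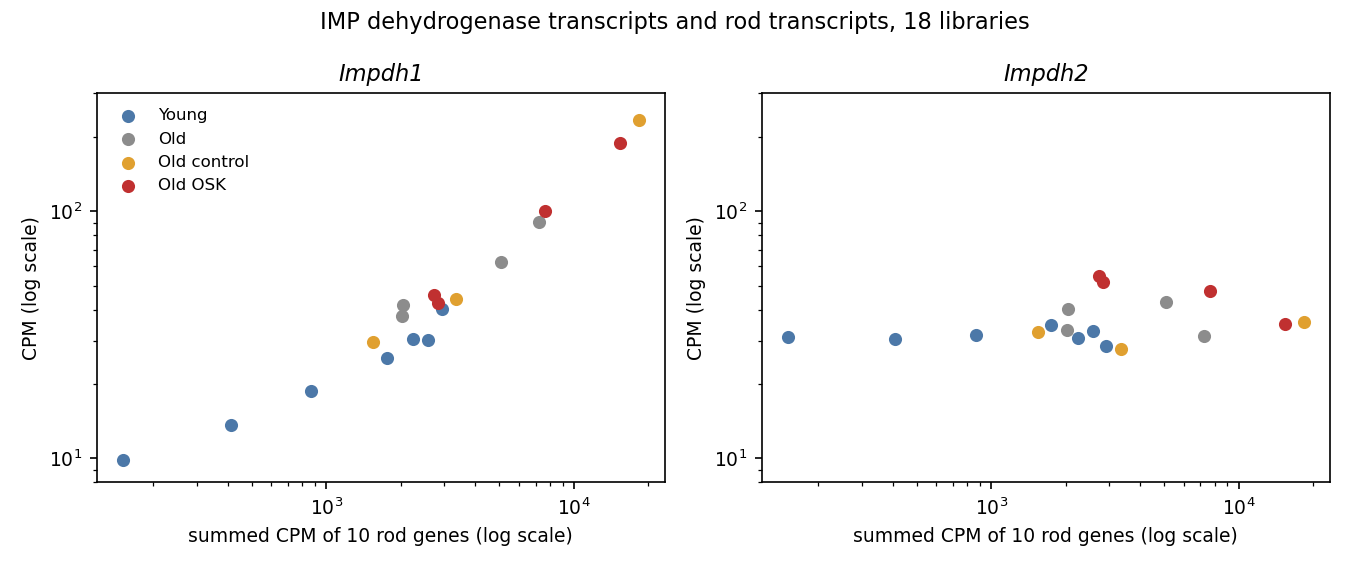
CPM of Impdh1 and of Impdh2 (vertical log axes) in each of the 18 libraries against the summed CPM of 10 rod markers (horizontal log axis), coloured by group. Impdh1 climbs with the rod sum from 9.84 CPM in Young replicate 5 to 234.9 CPM in Old control replicate 2, while Impdh2 stays between 27.86 and 54.85 CPM.

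Old control against Old compares aged RPE with and without AAV2-tTA. None of the 10 enzymes passed the threshold, and over all genes the share was 0%, in DESeq2 as well as in edgeR. At an unadjusted p under 0.05, 0 of the 10 and 3.74% of all genes were found in edgeR. The lowest edgeR adjusted p of the 10 was 0.9, for Mthfd2 (log2 fold change 0.38) and Impdh2 (-0.20). Paics had a log2 fold change of -0.05, with its 3 Old control values overlapping the 4 Old values. Impdh1 had 0.83 (SE 0.65), which was -0.65 without Old control replicate 2, the library highest in rod markers. Mthfd2 had Old control replicate 1 at 12.85 CPM and every other library of both groups at 6.37 to 7.272 CPM.

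The 10 enzymes differed in how closely libraries of a group repeated each other. The residual SD on the log2 scale, over 14 degrees of freedom, was 0.07 for Gmps, 0.10 for Paics, 0.13 for Ppat, 0.15 for Atic and 0.16 for Gart. Adsl (0.17) and Impdh2 (0.19) were near the median of 0.21 over genes whose log2 CPM averaged 3 or more, Pfas was at 0.22 and Mthfd2 at 0.26. Impdh1 stood apart at 0.93.

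Genes with a pattern like that of Paics over the 18 libraries were ranked by Pearson's r of log2 CPM among 10224 genes, as a description, since these libraries share the 4 Old OSK samples that set Paics apart. The 5 highest were Pcolce2 (r = 0.95, Spearman's coefficient 0.74), Plekha4 (0.93 and 0.72), Leprot (0.91 and 0.83), Litaf (0.91 and 0.62) and Scarb2 (0.90 and 0.50). Pcolce2, which encodes an enhancer of procollagen processing, was at 121.9 to 214.6 CPM in Old OSK, with Old control at 23.6 to 48.0 CPM. None of these 5 is an enzyme of purine synthesis. Ppat ranked 28th of the candidates (r = 0.80, Spearman's coefficient 0.78) and Impdh2 145th (0.67 and 0.26). Pfas ran against Paics (r = -0.60, Spearman's coefficient -0.23), and the other enzymes lay between -0.34 and 0.20. Among the 10, the gene most like Paics was thus its neighbour on the chromosome.

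Around these enzymes, 103 genes were listed, with earlier results of these data known, in 9 groups that feed, use or regulate purine synthesis. Of these genes, 102 were tested. In Old OSK against Old control 0 of them passed in edgeR, while 40 had an unadjusted p under 0.05, against 26.3% of all genes. DESeq2 called 15 higher and 3 lower, against 10.3% of all genes. In the equally numbered libraries edgeR called 13 without a replicate block (6% of all genes) and 8 with it (3% of all genes), all higher. Of the genes named in the following lists, Adss, Pnp, Xdh, Tk1 and Mcm6 passed with the block (adjusted p 0.0433 to 0.0494). Without Old control replicate 2 edgeR called 24 (18.2% of all genes passed), without Old OSK replicate 4 it called 21 (10.8%) and without both 35 (24.2%), while leaving out any other single library gave 0. The replication list had the highest median log2 fold change, 0.89, with 11 of its 12 genes above 0, against 47.1% of all genes. Its median was 0.46 in Old OSK against Old. In Old control against Old it was -0.48, with 1 of the 12 above 0. An unadjusted edgeR p under 0.05 was found for 10 of the 12 against Old control and for 2 against Old. In Old OSK against Old control the lowest p values of this list belonged to the helicase subunits Mcm2 and Mcm6. Mcm2 was at 20.7 ± 1.77 against 13.9 ± 1.08 CPM (mean ± SD, n = 4 and 3), a log2 fold change of 0.57 (edgeR adjusted p 0.0523). Mcm6 had 1.38 (edgeR adjusted p 0.0758). The pentose phosphate list, whose pathway makes the ribose for purines, had a median of 0.49 with 6 of 9 genes above 0. G6pdx, its entry enzyme, had a log2 fold change of 0.71 and Pgd 0.49 (edgeR adjusted p 0.072 and 0.0789).

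In the list for ribose phosphate supply and adenylosuccinate synthesis the median was -0.12. Adss, which starts the adenylate branch, had a log2 fold change of 1.49 (48.9 to 92.7 CPM in Old control, 73.2 to 273 in Old OSK, edgeR adjusted p 0.0909). In Old it was at 44.4 to 226 CPM, and its log2 fold change in Old OSK against Old was 0.64 (edgeR adjusted p 0.509). Adssl1 had -0.36 in Old OSK against Old control (edgeR adjusted p 0.177). Salvage had a median of -0.04, with Pnp, purine nucleoside phosphorylase, at 1.33 (edgeR adjusted p 0.0656) and Aprt at 0.38 (edgeR adjusted p 0.072). Pnp was at 32.4 to 96.0 CPM in all 4 Old OSK libraries and 23.6 to 27.97 CPM in Old control, so the groups did not overlap. Groups separated in this direction for 6.55% of all genes tested. In Old, Pnp was at 20.9 to 59.5 CPM, which overlapped Old OSK. Purine breakdown had a median of 0.10, with Xdh, which makes urate, at 1.28 (edgeR adjusted p 0.134) and the guanine deaminase Gda at 2.11 (edgeR adjusted p 0.168).

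Folate one-carbon metabolism, the neighbours of Mthfd2, had a median of -0.01, with Tyms, thymidylate synthase, at 0.68 (edgeR adjusted p 0.0952). Serine synthesis and glycine cleavage had a median of -0.16, with Gldc at -0.67 and Dld at -0.21 (edgeR adjusted p 0.085 and 0.0966). Pyrimidine and deoxynucleotide synthesis had 0.17, with thymidine kinase Tk1 at 1.57 and Uck1 at -0.36 (edgeR adjusted p 0.0818 and 0.092). The list of transcription factors had 0.08, with Myc, which binds E-boxes, at 1.37 (2.67 to 8.28 CPM in Old OSK, 1.65 to 3.42 in Old control, edgeR adjusted p 0.22). Mxi1, a factor of the Myc network, had 0.23 (edgeR adjusted p 0.639).

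In Old against Young 3 of the 102 genes rose and 2 fell, against 5.4% and 4.16% of all genes tested. Prps2, which makes the phosphoribosyl pyrophosphate that Ppat consumes, fell from 118.8 ± 12.6 CPM (SD, n = 7) to 67.5 ± 10.1 CPM (SD, n = 4), a log2 fold change of -0.82 with an edgeR adjusted p of 0.00208. No Old library (53.4 to 76.6 CPM) reached the lowest Young library (102.3 CPM), a separation seen in this direction in 5.61% of all genes tested. Aldh1l1, a cytosolic formyl-folate dehydrogenase, fell by 0.50 on the log2 scale (edgeR adjusted p 0.0375). Ampd3, an AMP deaminase, rose by 0.70 (edgeR adjusted p 0.0242) and Xdh by 1.53 (edgeR adjusted p 0.0271). Myc rose by 2.00 from 1.25 to 5.07 CPM (edgeR adjusted p 0.0333), with 1 Old library at 1.05 CPM, inside the Young range. With the M covariate or the rod covariate only Prps2 of the 5 passed. Ampd3 then had an edgeR adjusted p of 0.0575 and 0.105, and Xdh 0.0806 and 0.0744. No gene of the 5 passed with the replicate block, which rests on the replicate number alone. When single libraries were left out, Prps2 passed in 11 of 11 fits, Ampd3 in 8, Xdh in 6, Aldh1l1 in 5 and Myc in 2.

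The 10 macrophage and microglia markers moved with the same comparison, with 8 of 10 called higher in Old and summed levels of 750 to 1255 CPM against 497 to 686 in Young. Their part in the values of Ampd3, Xdh and Myc was not tested. In lists with no called gene, Old against Young gave log2 fold changes of -0.15 for Dld and -0.42 for Phgdh, 0.70 for Rpia and 0.39 for G6pdx, 1.097 for Tk1 and 1.13 for Rrm2, and 0.76 for Mcm3 and 1.27 for Top2a. Their edgeR adjusted p lay between 0.0522 and 0.231. In Old control against Old and in Old OSK against Old, 0 of the 102 passed in edgeR (0 and 2 with DESeq2). Without Old replicate 4, 11 passed in Old OSK against Old, where 6.55% of all genes did. In the full fits 8 and 17 of them had an unadjusted p under 0.05, against 3.74% and 15.7% of all genes.

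**Figure D5:**
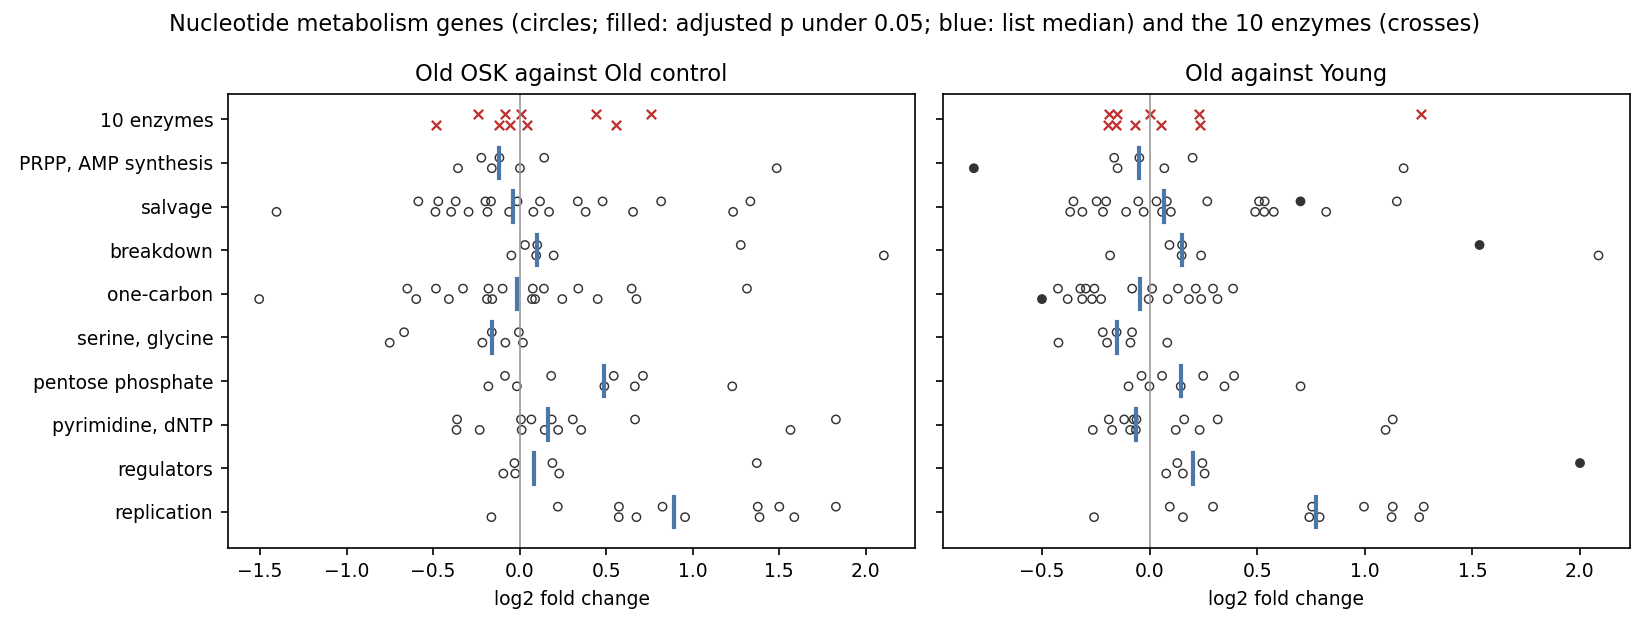
Log2 fold change (horizontal axis) in Old OSK against Old control (left) and Old against Young (right) of the 10 enzymes (red crosses) and of the other genes by list (circles, filled where the adjusted p was under 0.05, with the list median in blue). The replication list has the highest median on both sides, 0.89 and 0.77, and the filled circles, all on the right, are Prps2, Ampd3, Xdh, Aldh1l1 and Myc.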

How the data were processed

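PolyA RNA of RPE was amplified with a SMART-Seq low-input kit, made into Nextera XT libraries and sequenced, per the labels' protocols. The authors deposited raw counts per gene for 18 libraries, with STAR 2.7.1a and featureCounts 1.6.2 named in the submitters' processing notes. Those notes name mouse and human builds. Annotation and strand setting are not given in the sources used here. Of 21859 rows, 1096 were 0 throughout. Reads carry no molecular identifiers.

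Counts were filtered with filterByExpr (minimum count 10, minimum total 15) and scaled by TMM. edgeR 4.0.16 (R 4.3.3) fitted 4 group means to all 18 libraries with glmQLFit and glmQLFTest. P-values were adjusted by Benjamini-Hochberg over 15944 genes, and a gene was called at an adjusted p under 0.05. Intervals are 95% intervals of the fit. Correlations use log2 CPM with a prior count of 2. Members and lists were chosen with earlier results of these data known. Named pathway genes are up to 3 called genes of lowest p per list, or the 2 of lowest p where none was called, in 2 comparisons. Not every gene this selects is reported here. On simulated counts for Old OSK against Old control (15944 genes, 200 changed), 27% of 1.7-fold and 90% of 4-fold changes were recovered. The changed genes were drawn only from those above a floor of mean count. Counts were simulated independently, with no shared shifts in rod or RPE content, so these shares need not hold in the measured libraries.

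Libraries of Old OSK and Old control with the same replicate number deviated together from their group means (r = 0.10, 0.42 and 0.34 across genes). In Old control against Old the same r was 0.20, -0.19 and 0.36 for replicates 1 to 3. Y-linked counts of equally numbered libraries differed, with 5493 and 5013 in Old control replicates 2 and 3 against 15 and 4 in Old OSK. Pairing was not established, the main fit had no block, and the replicate block was fitted only as an alternative. Coordinates and exon lengths come from GENCODE M21 (GRCm38), promoters from RefSeq (GRCm38.p6). Alternatives were other size factors, no filter, DESeq2 1.42.0, covariates for the letter M and for rod markers, the 2 groups alone, a replicate block, leaving out each library and, added after seeing the data, leaving out the 2 libraries highest in rod markers.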

Additional observations from a re-analysis of the deposited data

Results flagged for a closer look

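Gmps was at 49.72 CPM in Old OSK replicate 3, while the other 3 Old OSK libraries lay between 54.27 and 54.66 CPM, so that this library stood far from a tight group. Of 30 groups of values examined in this way, chance alone would single out about 5%. The difference was not tested further.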

How the results depend on the processing

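In Old OSK against Old control, 1 of the 10 enzymes was called and 116 of all genes. The counts were 3 and 1640 with DESeq2 and 0 and 2 with the 2 groups alone. In the equally numbered libraries they were 0 and 478 with the replicate block and 2 and 956 without it. They were 4 and 3854 without the 2 libraries highest in rod markers (Paics, Ppat and Impdh2 higher, Pfas lower). Every count of enzymes above 0, here and in Old OSK against Old, includes Paics, which was chosen for its rise. The M covariate gave 58 genes. Leaving out 1 library gave 1 to 4 enzymes and 13 (without Old control replicate 1) to 2899 genes (without Old control replicate 2). In Old against Young, 1 enzyme and 1524 genes became 0 enzymes with other size factors, no filter, the M covariate, the rod covariate, the replicate block and the equally numbered libraries without it. With the 2 groups alone 1 enzyme was called, Impdh1 (higher) in place of Gmps. Genes called were 2452 with DESeq2, 600 with M, 465 with rod markers, 1 with the block and 171 without it. Leaving out 1 library gave 0 to 1 enzymes and 393 (without Old replicate 4) to 2142 genes (without Old replicate 1). In Old OSK against Old, 1 enzyme and 134 genes became 0 and 1 with the block, and genes were 446 with DESeq2 and 70 both with the 2 groups alone and in the equally numbered libraries. Leaving out 1 library gave 1 to 2 enzymes and 49 (without Old OSK replicate 2) to 1044 genes (without Old replicate 4). In Old control against Old all counts from leaving out 1 library were 0. The cause of these shifts was not tested.

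Of the values of the 10 enzymes under alternatives, 49 changed sign, 13 passed the threshold newly, 19 lost it and 579 did neither. No value that changed sign was called. In the equally numbered libraries of Old OSK and Old control, Impdh2 was called without the block and not with it (edgeR adjusted p 0.067). Paics, whose values in this comparison are a description with no test, went the same way (edgeR adjusted p 0.0566 with the block). With the M covariate the values were -0.064 (Adsl) and 0.077 (Impdh1) in Old OSK against Old control, -0.010 for Adsl and -0.014 for Atic in Old against Young, 0.0078 for Paics in Old control against Old and 0.0061 for Atic in Old OSK against Old. With the rod covariate they were -0.0014 (Adsl) and 0.043 (Impdh1) in Old OSK against Old control, -0.0045 (Adsl, Old against Young) and 0.023 (Atic, Old OSK against Old). With the replicate block they were 0.0085 (Gart) and -0.054 (Adsl) in Old against Young and -0.10 (Pfas) in Old control against Old, and in the same libraries without it 0.0086, -0.039 and -0.078. Without the 2 libraries highest in rod markers, Atic was at -0.043 and Impdh1 at 0.72. When 1 library was left out, sign changes gave these ranges. In Old OSK against Old control they were -0.24 to 0.011 (Gart), -0.080 to 0.018 (Adsl), -0.077 to 0.12 (Atic), -0.75 to 1.34 (Impdh1), -0.42 to 0.097 (Mthfd2) and -0.030 to 0.75 (Mxi1). In Old against Young they were -0.093 to 0.11 (Adsl) and -0.027 to 0.042 (Atic). In Old control against Old they were -0.11 to 0.19 (Pfas), -0.025 to 0.18 (Adsl), -0.12 to 0.044 (Atic) and -0.65 to 1.27 (Impdh1). In Old OSK against Old they were -0.043 to 0.19 (Adsl), -0.13 to 0.026 (Atic) and -0.057 to 0.017 (Gmps).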
